A study of Mus musculus with 15 samples.

Results

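The genes described here are 9 genes of the intercalated cells of the mouse kidney: Foxi1, Hmx2, Slc4a1, Aqp6, Rhbg, Rhcg, Slc26a4, Slc4a9 and Kit. They were chosen by symbol, with earlier results of these data known. All 9 were found among the 23393 genes of each of 3 deposited comparisons. The kidneys came from C57BL/6 mice. All of them carried floxed alleles of Esrrg (ERRg fl/fl), the gene of the nuclear receptor ERRγ, and the knockouts also carried the Sim1-Cre transgene (ERRg fl/fl;Sim1-Cre). The controls were littermates without Cre. By the labels, the males taken at 3 weeks of age were 2 controls and 3 knockouts, the females of that age were 2 of each genotype, and the males taken at 3 months were 3 of each. The Sim1 driver is best known for its activity in the hypothalamus, and no source used here says which kidney cells it reaches. Polyadenylated RNA of the kidney was sequenced, and the comparison in each table asks which genes differ between the genotypes.

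Intercalated cells lie scattered among the principal cells of the connecting tubule and collecting duct and set the acid-base balance of the urine. Type A cells secrete acid through a proton pump at the luminal side and return bicarbonate to the blood through the anion exchanger AE1, encoded by Slc4a1. Type B cells secrete bicarbonate through pendrin, encoded by Slc26a4, and carry the transporter AE4, encoded by Slc4a9, on the opposite side. The forkhead factor Foxi1 is required for the intercalated cell program, and the Rh glycoproteins Rhbg and Rhcg move ammonia across these and neighbouring cells.

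The deposited values are, for each comparison, a mean of normalized counts over all its libraries, a log2 fold change between genotypes with its standard error (SE), and a p-value and adjusted p-value. DESeq2 is the only differential test named in the submitters' processing notes. A gene was called when its adjusted p was under 0.05. The authors' deposited tables mark some genes "Outlier", and these have a fold change and SE but no p-value. Levels in single libraries were not used here, so each value below is a mean over libraries or a fold change with the authors' SE, and the overlap of single kidneys between groups cannot be seen. The steps of the lowest mean counts fitted 4, 4 and 5 libraries in 3-week males, 3-week females and 3-month males, fewer than labelled in both male comparisons. The summed mean counts were 47478811, 33861809 and 18805533, in the same order. The source field of the 3-month knockouts calls them female where their titles and sex field say male. In that table the mean count was 11.9 for Xist and 1477 for Ddx3y, against 23848 and 0.8 in the table of females.

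Which genotype stands over which in the deposited ratio is not named in the headers. A positive value was read as higher in the libraries labelled knockout. The series title ties ERRγ to renal reabsorptive genes, and the tubule genes Umod, Slc34a1, Lrp2 and Slc12a1 had negative fold changes in all 3 of the authors' deposited tables. Reabsorptive genes did not all share that sign: in 3-week males Scnn1g (0.90), Aqp3 (0.98) and Slc8a1 (0.62) were positive and called in the authors' deposited table. Esrrg goes against this reading at 3 weeks. The authors' deposited tables gave it 0.82 ± 0.20 (SE) in males (adjusted p = 0.000613) and 1.04 ± 0.17 in females (adjusted p = 1.70e-08), and -0.87 ± 0.57 without a p-value at 3 months. Reads from exons outside the deleted part would be counted as Esrrg, and no source used here names the floxed exon, so the labels cannot be checked by this gene. With the ratio turned, every "lower" below would read "higher", and Slc4a1, Aqp6, Rhbg and Rhcg in 3-week males would be 10.7, 14.4, 2.97 and 2.30 times the control level.

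Upstream sequence was available from RefSeq (GRCm38.p6) for 6 of the 9 genes, in 8 windows from 250 bases before to 50 bases after an annotated start. Slc4a1 and Rhbg, which fell, were among the genes without a window and could not be searched. The ERR element TNAAGGTCA, searched on both strands, was in none of the 8 windows and in 1.28% of all 32851 windows. The forkhead core GTAAACA, also on both strands, was in none of them and in 3.65% of all windows. The letters TATAA on the transcribed strand, beginning 35 to 25 bases before the start, were in 3 of the 8 windows (1 each of Foxi1, Hmx2 and Slc26a4) and in 2.97% of all windows. This last motif was chosen after the sequences had been seen. The 250 bases before the start are shown for a pair of members that fell (Aqp6 and Rhcg) and a pair that had fold changes near 0 at 3 weeks (Foxi1 and Slc26a4), each 5′ to 3′ along the gene's own strand, with TATAA at that distance in capitals. They are chr15:99600950-99601199 (plus strand), chr7:79617658-79617907, chr11:34208090-34208339 and chr12:31559985-31560234 (minus strand), in that order.
Aqp6: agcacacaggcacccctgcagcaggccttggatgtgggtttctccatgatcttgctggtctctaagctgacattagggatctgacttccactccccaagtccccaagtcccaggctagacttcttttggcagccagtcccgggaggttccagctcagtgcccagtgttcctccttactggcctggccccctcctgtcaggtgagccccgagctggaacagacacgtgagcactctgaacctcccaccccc
Rhcg: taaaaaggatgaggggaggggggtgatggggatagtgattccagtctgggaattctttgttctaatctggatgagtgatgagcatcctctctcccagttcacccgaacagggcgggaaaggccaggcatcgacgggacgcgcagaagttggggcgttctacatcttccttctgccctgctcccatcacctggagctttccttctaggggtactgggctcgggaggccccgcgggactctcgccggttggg
Foxi1: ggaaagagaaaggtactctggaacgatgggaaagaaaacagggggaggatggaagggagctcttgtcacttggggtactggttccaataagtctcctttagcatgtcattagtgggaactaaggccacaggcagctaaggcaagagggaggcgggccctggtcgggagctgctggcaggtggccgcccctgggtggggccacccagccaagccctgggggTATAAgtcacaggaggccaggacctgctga
Slc26a4: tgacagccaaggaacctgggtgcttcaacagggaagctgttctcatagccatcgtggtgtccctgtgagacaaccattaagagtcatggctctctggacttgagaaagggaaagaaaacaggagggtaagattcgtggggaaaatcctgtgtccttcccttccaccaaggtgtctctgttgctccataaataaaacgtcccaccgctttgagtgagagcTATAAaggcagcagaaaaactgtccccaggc
TATAA begins 30 bases before the RefSeq start in Foxi1 and 31 in Slc26a4, and is absent at that distance in Aqp6 and Rhcg. The pairs leave out Hmx2, which has TATAA at that distance and was at -0.68 in 3-week males. GENCODE M21 starts Aqp6 further downstream, at 99601400, and Slc26a4 too, at 31559969. The absence in Aqp6 and the distance in Slc26a4 therefore hold for the RefSeq starts only. The GC content of the 4 stretches was 59.6%, 58.4%, 58.8% and 49.6%, and they held 3, 12, 4 and 4 CpG pairs. A match or its absence in these windows is a description of the letters and says nothing of binding.

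In 3-week-old males, 4 members (Slc4a1, Aqp6, Rhbg and Rhcg) were called lower in the knockout kidneys, and none was called higher. Slc4a1 fell to 9.3% and Aqp6 to 6.9% of the control level, and Rhbg and Rhcg to 33.7% and 43.5%, by the fold changes of the authors' deposited table. Foxi1, Slc26a4, Slc4a9 and Kit stood between 95.7% and 117.5%. Of the 9 members 7 had a p-value and 4 of these were called lower, where lower calls made up 8.52% and higher calls 8.81% of all 14657 tested genes. Such contrasts with all genes, here and below, may not be independent of how the members were chosen. The median log2 fold change of the 9 members was -0.68, against -0.001 over all genes with a mean count of at least 10. In bulk tissue, fewer intercalated cells and less RNA per cell cannot be told apart.

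In 3-week-old females Aqp6, Rhbg and Rhcg were called lower, at 5.2%, 33.1% and 57.0% of the control level in the authors' deposited table. Slc4a1 stood at 7.1% there but carries no p-value. Of the 6 members with a p-value 3 were called lower and none higher, where lower calls made up 10.4% and higher calls 8.29% of 14146 tested genes. The median of the 9 members was -0.29 on the log2 scale, against 0.010 over all genes with a mean count of at least 10.

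At 3 months all 9 members had negative fold changes in the authors' deposited table, but Kit alone had a p-value. Kit was not called, so that 0 of 1 tested member passed in the authors' test, taken to be DESeq2, and 0 at an unadjusted p under 0.05. Lower calls made up 27.8% and higher calls 29.8% of the 12828 genes tested at this age. The median of the 9 members was -0.95, against 0.006 over all genes with a mean count of at least 10. The other 8 members are Outlier genes, so their values at this age are given without a test.

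All these values are relative to the authors' scaling. Scaling to total counts, as far as the tables allow it, adds 0.178, 0.150 and 0.495 to each log2 fold change in 3-week males, 3-week females and 3-month males. It leaves the calls of the members as they were. Under it the share of higher genes among all calls moves from 50.8% to 75.2%, from 44.2% to 74.1% and from 51.7% to 84.0%. Of the 9 members, 5, 6 and 6 are then negative where 7, 7 and 9 were before, and the signs that turn are those of Foxi1 and Slc26a4 in 3-week males, Hmx2 in females, and Foxi1, Hmx2 and Kit at 3 months.

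**Figure D1:**
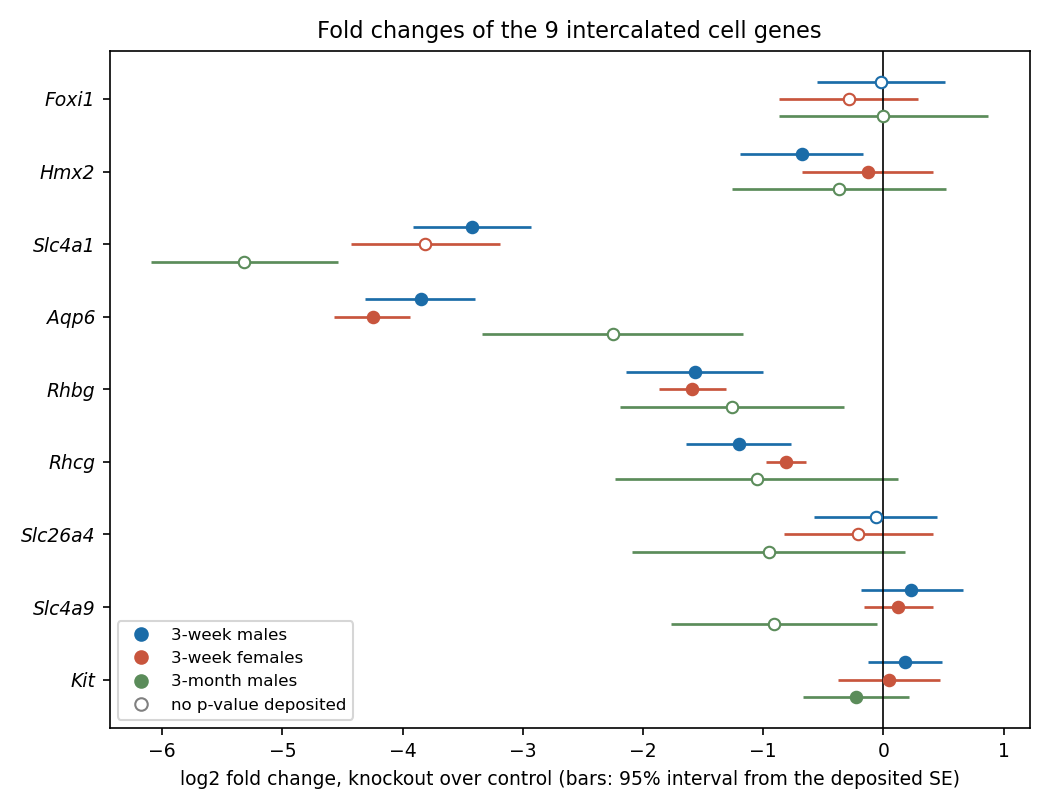
Log2 fold change (x axis, knockout over control) of each of the 9 genes (rows) in the 3 deposited comparisons (colours), with bars for the 95% normal interval from the deposited SE; open circles have no deposited p-value. Slc4a1 and Aqp6 lie between -5.32 and -2.25, Rhbg and Rhcg between -1.59 and -0.81, and the intervals of Foxi1 include 0 in all 3 comparisons.

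Foxi1 (chromosome 11, 34204338 to 34208089, minus strand in GRCm38, the build called mm10 in the submitters' processing notes) was close to the control level. Its mean normalized count was 3468 in 3-week males, 2057 in 3-week females and 708 in 3-month males in the authors' deposited tables. The log2 fold changes there were -0.02 ± 0.27 (SE), -0.29 ± 0.30 and -0.001 ± 0.44. It has no p-value in any of the tables. The 95% intervals reach down to -0.55, -0.87 and -0.87, so a fall of the size seen for Slc4a1 or Aqp6 lies outside them. In females and at 3 months they do hold a fall of the size seen for Rhcg in females.

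Hmx2 (chromosome 7, 131548773 to 131558014, plus strand), a homeobox factor known from development of the inner ear, had the lowest mean counts of the 9, at 704, 452 and 171 in the same order. The authors' deposited table of 3-week males gave it -0.68 ± 0.26 (adjusted p = 0.0529), just outside the threshold. In females it was at -0.13 ± 0.28 (adjusted p = 0.806), and at 3 months at -0.37 ± 0.45 without a p-value, in the authors' deposited tables. The difference between males and females was -0.55 with a 95% interval from -1.30 to 0.20, so the sexes could not be told apart. GENCODE M21 places Hmx2 inside the span of Fgfr2 on the other strand. The library kit keeps strand, and no source used here says whether the counting used it. The related Hmx3 had a mean count of 18.5 in 3-week males and was not called in either 3-week table.

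Slc4a1 (chromosome 11, 102348824 to 102366203, minus strand), the exchanger through which type A cells return bicarbonate, had mean counts of 2691, 1837 and 496. The authors' deposited table of 3-week males gave -3.42 ± 0.25 (adjusted p = 2.67e-40). In females the value was -3.81 ± 0.32 and at 3 months -5.32 ± 0.39 in the authors' deposited tables, both without a p-value. Only 14 of 14657 tested genes had a lower fold change in 3-week males, and at 3 months only 1 of 12828 did. The 3 intervals span -3.91 to -2.93, -4.43 to -3.19 and -6.09 to -4.54. The difference between the ages was 1.89 ± 0.47. It stands outside the test of genes with a p-value at both ages, and passed when genes of every status were tested from the deposited fold changes and SEs (adjusted p = 0.000544). In that setting 4512 of 17829 genes passed. The largest SE among genes not marked Outlier was 0.44 in 3-week males and 0.79 at 3 months, so the fold changes may have been moderated towards 0 to unequal degrees.

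AE1 is also a main membrane protein of red cells, so erythroid genes are given beside it. Of the 11 listed erythroid markers 9 were found, and Hba-a1 and Hba-a2 were at 0 in all 3 tables. The summed mean count of the list was 37361, 39085 and 3371 in 3-week males, 3-week females and 3-month males, most of it from the beta globin gene listed as Beta-s. In 3-week males none of 3 tested markers was called. In females 2 of 4 tested markers were called lower and none higher, and at 3 months 2 of 3. Lower calls made up 10.4% of all tested genes in females and 27.8% at 3 months. The medians of the list were -0.38, -1.57 and -0.94 on the log2 scale. Alas2, the first enzyme of heme synthesis in red cells, stood at -0.55 ± 0.42, -1.94 ± 0.35 and -1.01 ± 0.40 in the authors' deposited tables, the last with adjusted p = 0.0223 and the others without a p-value. The call of Alas2 was lost with total-count scaling. Klf1, an erythroid transcription factor, fell as well at 3 months (-1.73 ± 0.37, adjusted p = 1.18e-05 in the authors' deposited table). At 3 weeks Klf1 was not called, at 0.12 ± 0.34 in males and -0.33 ± 0.40 in females. Epb42, listed as Epb4.2 and named after its values were seen, went the other way. It was at 0.70 ± 0.34, 0.35 ± 0.31 and 0.23 ± 0.46 in 3-week males, 3-week females and 3-month males, and was called in none. The part of erythroid RNA in the values of Slc4a1 at 3 weeks was not tested.

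Aqp6 (chromosome 15, 99601400 to 99605477, plus strand) encodes an aquaporin of intracellular vesicles of type A cells that conducts anions. Its mean counts were 1738, 1266 and 476. The authors' deposited tables gave -3.85 ± 0.23 in 3-week males (adjusted p = 1.22e-58) and -4.25 ± 0.16 in females of that age (adjusted p = 1.11e-151). Only 7 of 14657 and 6 of 14146 tested genes had lower fold changes. The sexes differed by 0.40 with an interval from -0.15 to 0.96, which includes 0. At 3 months the value was -2.25 ± 0.55, with an interval from -3.34 to -1.17 and no p-value in the authors' deposited table. In males Aqp6 thus stood at 6.9% of control at 3 weeks and 21.0% at 3 months, and Slc4a1 at 9.3% and 2.5%, where Aqp6 has no p-value at 3 months. With genes of every status tested, the difference between the ages in Aqp6 was -1.60 ± 0.60 (adjusted p = 0.0341), where 4512 of 17829 genes passed. The difference between the ages may depend on the deposited scale: with the moderation of fold changes towards 0 undone, Aqp6 stood at 2.5% and 4.8% of control. The undoing takes the largest SE among genes not marked Outlier, 0.79 at 3 months, as a ceiling. Over all genes SEs reach 1.10 at that age, so the undoing may not hold there for Aqp6, an Outlier gene.

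Rhbg (chromosome 3, 88242874 to 88254709, minus strand), the ammonia transporter of the basolateral side, had mean counts of 2747, 2004 and 861. It fell in both sexes at 3 weeks, with -1.57 ± 0.29 (adjusted p = 2.36e-06) in males and -1.59 ± 0.14 (adjusted p = 1.68e-26) in females in the authors' deposited tables. The difference of 0.02 had an interval from -0.61 to 0.66. With the moderation undone the values were -2.80 ± 0.39 and -1.80 ± 0.15, and their difference, with an SE of 0.42, did not pass (adjusted p = 0.215). At 3 months it was at -1.26 ± 0.48 without a p-value in the authors' deposited table. In GENCODE M21 Rhbg shares its strand and part of its span with the gene model Gm38392, which is not a row of the tables.

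Rhcg (chromosome 7, 79593363 to 79617657, minus strand), the Rh glycoprotein found at the luminal side and on the basolateral side, had the highest mean counts per exon length of the 9. They were 3308 per kb in 3-week males, from a mean count of 7384. It fell in both sexes at 3 weeks, by 1.20 ± 0.22 (adjusted p = 2.02e-06) in males and 0.81 ± 0.09 (adjusted p = 9.43e-18) in females on the log2 scale in the authors' deposited tables. The difference of -0.39 had an interval from -0.86 to 0.08. At 3 months the value was -1.05 ± 0.60 in the authors' deposited table, with an interval from -2.23 to 0.12. Rhcg is the call that ends when a log2 fold change of at least 1 is also required, in females only.

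Of the type B members, Slc4a9 was tested and not called in either sex at 3 weeks, and Slc26a4 was not tested. Slc26a4, pendrin (chromosome 12, 31519827 to 31559969, minus strand), had mean counts of 7046, 4798 and 1727. The authors' deposited tables gave -0.06 ± 0.26, -0.21 ± 0.31 and -0.95 ± 0.58, and no p-value in any. At 3 weeks its intervals run from -0.58 to 0.45 and from -0.83 to 0.41, and so lie above those of Slc4a1 and Aqp6. Slc4a9 (chromosome 18, 36528147 to 36556273, plus strand) had mean counts of 8712, 5963 and 2300. It was at 0.23 ± 0.22 (adjusted p = 0.549) in males and 0.12 ± 0.14 (adjusted p = 0.613) in females at 3 weeks in the authors' deposited tables. At 3 months it was at -0.91 ± 0.44 in the authors' deposited table, with an interval from -1.77 to -0.05 and no p-value. On the deposited scale both type B genes had 3-month values near -0.9 where they were near 0 at 3 weeks, and neither has a p-value at 3 months. With total-count scaling the 3-month values were -0.46 for Slc26a4 and -0.41 for Slc4a9. With the moderation undone they were -2.04 and -1.31, though the undoing may not hold for Outlier genes at this age. With genes of every status tested, the difference between the ages was 1.14 ± 0.49 for Slc4a9 (adjusted p = 0.0698) and 0.89 ± 0.64 for Slc26a4 (adjusted p = 0.328).

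Kit (chromosome 5, 75574916 to 75656722, plus strand), the receptor of stem cell factor, is the member with a p-value in all 3 tables, and it was called in none. Its mean counts were 1954, 1313 and 509. The authors' deposited tables gave 0.18 ± 0.16 (adjusted p = 0.522), 0.05 ± 0.22 (adjusted p = 0.910) and -0.23 ± 0.22 (adjusted p = 0.377). The intervals keep its change between -0.67 and 0.49. Kitl, its ligand, was called at 3 months alone, at 0.76 ± 0.15 (adjusted p = 8.71e-07) in the authors' deposited table. Mast cells also carry Kit. Of 8 mast cell markers all were in the tables, with summed mean counts of 338, 286 and 38, below the mean count of Kit in each. Of these markers 6 were tested in 3-week males, 3 in 3-week females and 1 at 3 months. Only Hdc, histidine decarboxylase, passed among those tested, in females (1.01 ± 0.18, adjusted p = 5.95e-07) and at 3 months (1.88 ± 0.63, adjusted p = 0.00596) in the authors' deposited tables. Hdc was the 1 marker tested at 3 months, and it held most of the summed counts, with 248, 227 and 20.9. Tpsab1 and Fcer1a had mean counts below 1 in all 3 tables.

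**Figure D2:**
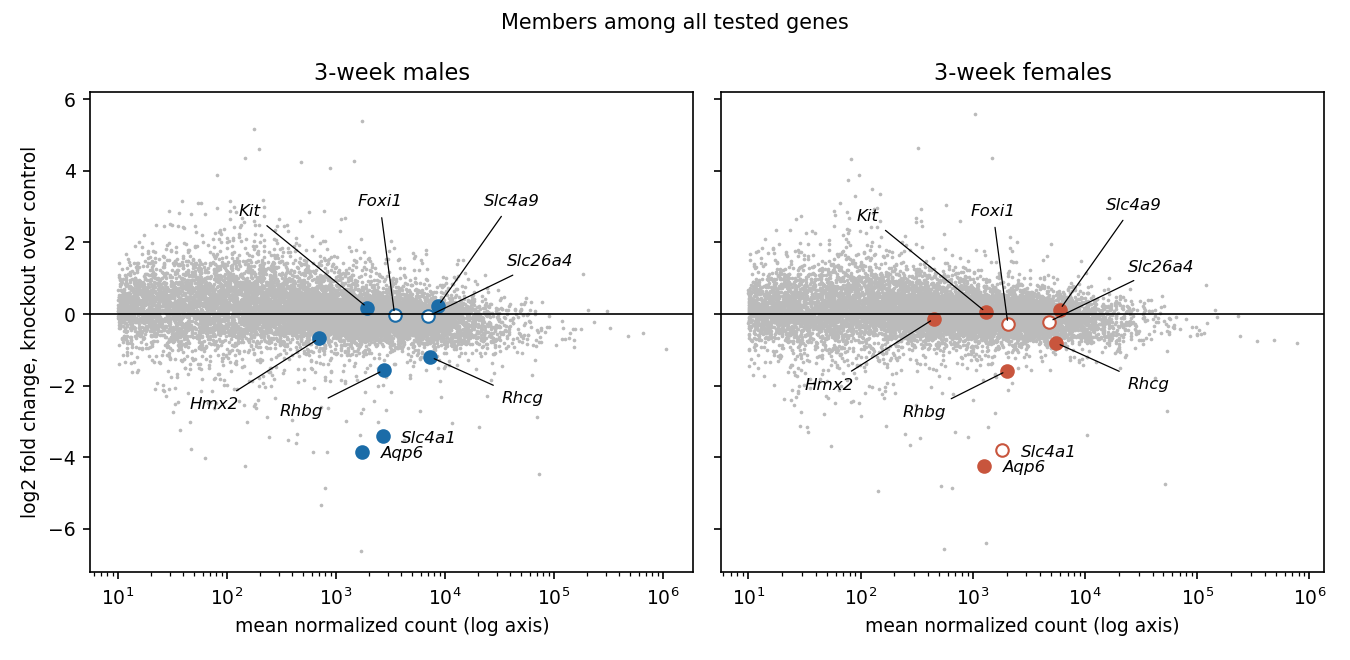
Log2 fold change (y axis, knockout over control) against mean normalized count (x axis, log) of all tested genes (grey) and the 9 members (coloured; open circles have no deposited p-value) in 3-week males and females. Slc4a1 and Aqp6 lie at the lower edge of the cloud, at -3.42 and -3.85 in males and -3.81 and -4.25 in females, while Foxi1, Slc26a4, Slc4a9 and Kit lie within it.

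The difference between the sexes could be tested for 6 members and passed for none, with adjusted p = 1 for each by a normal test of the difference between 2 deposited fold changes, adjusted over 13737 genes. Of those 13737 genes 0% passed, while 237 genes and 0 members had an unadjusted p under 0.05. Even without any difference that threshold would pass more genes, so the test was too cautious on the deposited scale. With the moderation undone 744 of 13545 genes and 0 members passed. The lack of calls therefore does not show that the sexes are alike. The difference between ages in males could be tested for Kit alone. It was 0.41 with an interval from -0.12 to 0.95 and did not pass (adjusted p = 0.268), where 27.7% of 12355 genes did.

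Levels of different genes were compared per kb of merged exon length within a table. With both genotypes pooled, Rhcg stood highest in 3-week males with 3308 mean normalized counts per kb, followed by Slc26a4 with 2266. Foxi1, Rhbg and Slc4a9 followed closely together with 1471, 1418 and 1361. Aqp6 had 717 and Slc4a1 550, and Hmx2 and Kit came last with 219 each. The order in females differed in Foxi1, which fell behind Rhbg and Slc4a9 (873 against 1035 and 931), and in the last pair, with 147 for Kit and 141 for Hmx2. At 3 months the order was that of females, from 892 for Rhcg to 53 for Hmx2. The order changes when the genotypes are taken apart by the deposited mean and fold change, an alternative added after seeing the data. In 3-week male controls Rhbg (2121 per kb) stood above Foxi1 (1481), and Aqp6 (1341) above Slc4a9 (1253). In the knockouts Slc26a4 (2219) stood above Rhcg (2006), and Slc4a1 (94) and Aqp6 (93) came last. The spread of these levels over libraries is not known here, so it cannot be said which neighbours in the order differ beyond it.

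**Figure D3:**
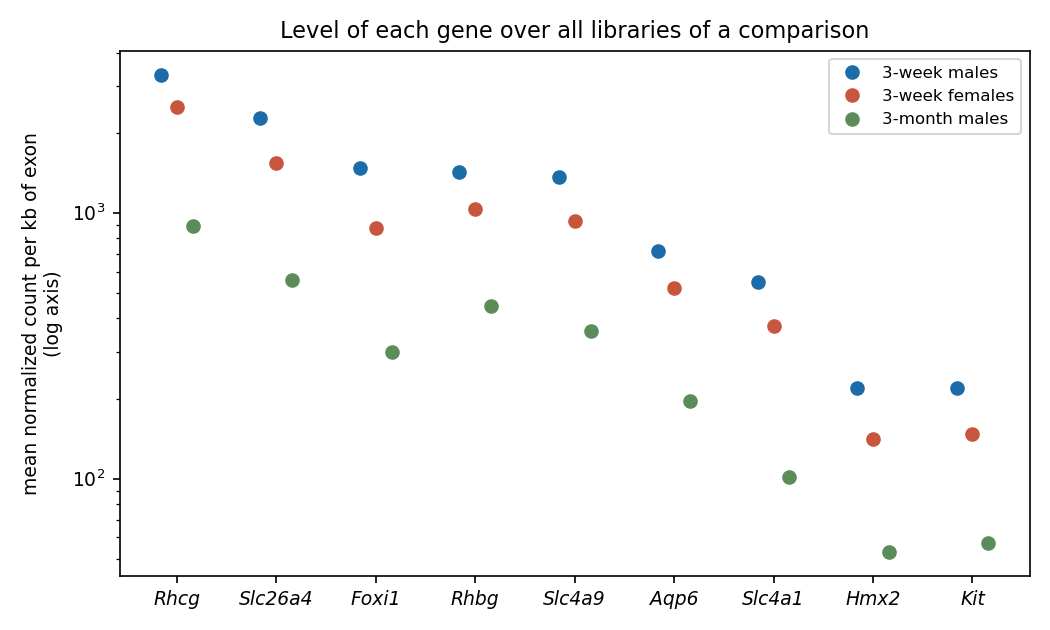
Mean normalized count per kb of merged exons (y axis, log) of the 9 genes (x axis, in the order of 3-week males) in the 3 comparisons (colours); each point is the mean over both genotypes. With the genotypes pooled, Rhcg is highest and Hmx2 and Kit are lowest in all 3, and heights are comparable within a colour only, since the tables were normalized separately.

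As a measure for the lists that follow, 8.52% of all tested genes were called lower and 8.81% higher in 3-week males. In 3-week females the shares were 10.4% and 8.29%, and at 3 months 27.8% and 29.8%. Genes of proton pumps and carbonic anhydrases were called lower in part. Of 11 such genes 10 were tested in 3-week males, with 5 called lower and none higher and a median of -0.44. Atp4a, the gastric type proton pump, was at -4.87 ± 0.23 (adjusted p = 1.34e-99), Car4 at -1.39 ± 0.20, Car2, the cytosolic carbonic anhydrase, at -0.81 ± 0.17 and Atp6v1b1, the V-ATPase subunit typical of intercalated cells, at -1.16 ± 0.26 in the authors' deposited table. In females 4 of 8 tested genes were called lower and none higher (median -0.53), with Atp6v1b1 at -1.05 ± 0.12 (adjusted p = 1.81e-15) and Atp6v1g3 at -1.06 ± 0.24 in the authors' deposited table. The call of Car2 in females, at -0.53 ± 0.17, was lost with total-count scaling. Others were not called at 3 weeks or have no p-value there, and 4 are named after their values were seen. In 3-week males and females the authors' deposited tables gave the V-ATPase subunit gene Atp6v0d2 0.07 ± 0.18 and -0.02 ± 0.18. The carbonic anhydrase genes Car12 (-0.14 and 0.22) and Car15 (0.14 and -0.06) were not called in the authors' deposited tables. Atp12a stood at 241.8% and 267.0% of control without a p-value in the authors' deposited tables. At 3 months 3 of the 11 were tested, with Atp6v0a4 lower (-1.70 ± 0.33) and Atp12a, the other H,K-ATPase, higher (1.35 ± 0.28) in the authors' deposited table.

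Of 12 other genes known from intercalated cells, 10 were tested in 3-week males, with 2 called lower and none higher. Lower calls made up 8.52% of all tested genes there, and 10.4% in 3-week females. Oxgr1, the oxoglutarate receptor of type B cells, fell (-0.69 ± 0.21, adjusted p = 0.00999), as did Adgrf5, listed under its older symbol Gpr116 (-0.40 ± 0.15, adjusted p = 0.0422), in the authors' deposited table. Both of these calls were lost with total-count scaling. In females Oxgr1 and Adgrf5 fell again, at -0.90 ± 0.20 and -0.85 ± 0.18, and the Notch ligand gene Jag1 rose by 0.37 ± 0.10 (adjusted p = 0.00248) in the authors' deposited table. Adgrf5 is also known from endothelium. The medians were -0.01 in males and -0.11 in females, and became 0.16 and 0.04 with total-count scaling. Tfcp2l1, a transcription factor of the collecting duct also named after its values were seen, was at 0.01 ± 0.21 in males and 0.06 ± 0.14 in females in the authors' deposited tables and was not called. At 3 months it was at -1.40 ± 0.50 without a p-value in the authors' deposited table. At that age 8 were tested, of which 4 passed as higher and 1 as lower. Higher calls made up 29.8% and lower calls 27.8% of all genes tested at 3 months. Spink8 was at 2.85 ± 0.10, Jag1 at 1.40 ± 0.20 and Slc4a8, a sodium-driven bicarbonate exchanger, at 1.11 ± 0.18, and Slc26a11 was lower at -1.07 ± 0.14 in the authors' deposited table.

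None of the tested markers of the neighbouring principal cells was called lower in any table. Of 10 markers, all had positive fold changes in 3-week males (median 0.61), 3 of 6 tested were called higher and none lower. Higher calls made up 8.81% of all tested genes there. The sodium channel subunit gene Scnn1g was at 0.90 ± 0.16 and the water channel gene Aqp3 at 0.98 ± 0.23 in the authors' deposited table. In females 1 of the 10 was tested and it was not called (adjusted p = 0.168 for Scnn1g in the authors' deposited table; median of the list 0.24). At 3 months 4 of 5 tested were higher, where 29.8% of all tested genes were, and the median of the list was 1.73. Markers of the distal convoluted and connecting tubule had medians of -0.94, -0.77 and -1.19. Of these, 4 of 7 tested were lower and 1 higher in 3-week males, 3 of 5 lower and 1 higher in females and 2 of 2 lower at 3 months. Lower calls made up 8.52%, 10.4% and 27.8% of all tested genes, in the same order. The share of the members' values that goes with these other cells was not tested.

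**Figure D4:**
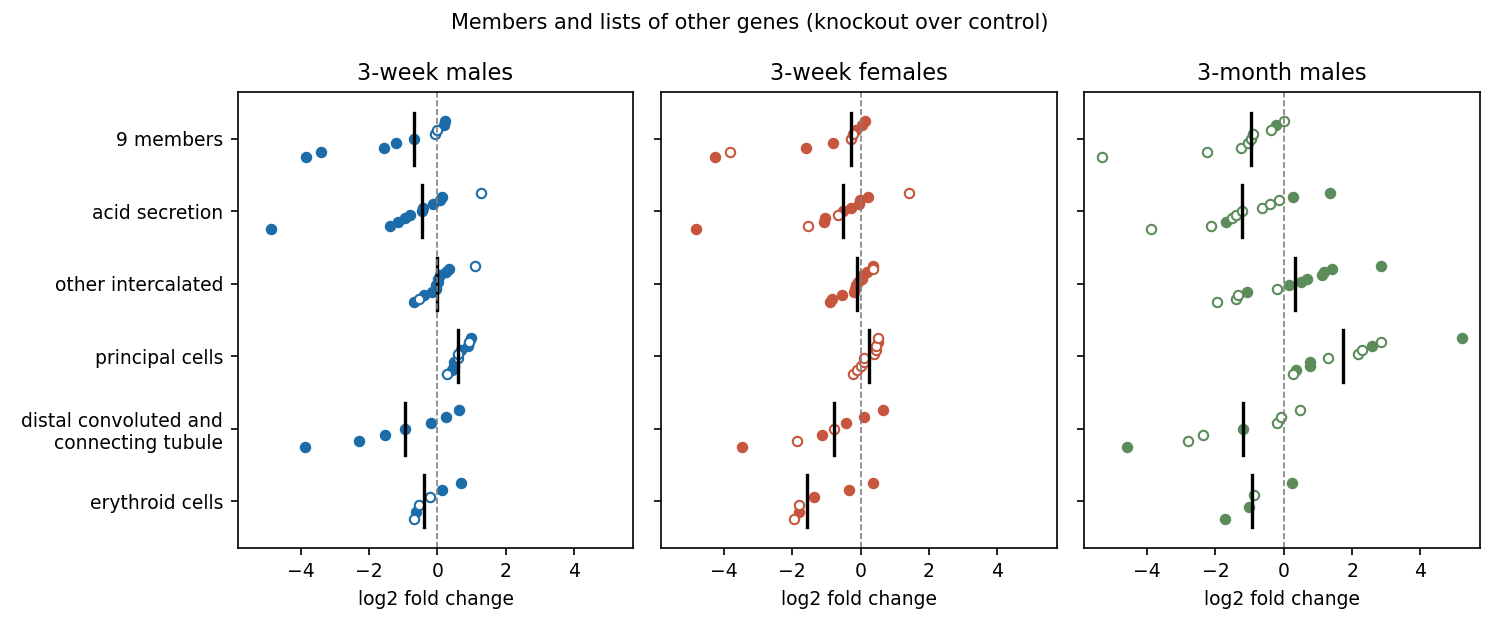
Log2 fold change (x axis, knockout over control) of single genes in 6 lists (rows) in the 3 comparisons (panels); filled circles have a deposited p-value, open circles have none, black bars are list medians, and genes the authors mark Low are left out. The medians of the 9 members are -0.68, -0.29 and -0.95, and those of principal cell markers are 0.61, 0.24 and 1.73.

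The genes whose 3 fold changes were most like those of Foxi1, Aqp6 and Slc4a1 were found by Euclidean distance on the log2 scale among 13272 genes with a mean count of at least 10 in all 3 tables. Aqp6 was nearest to Kcnt1, a sodium-activated potassium channel gene (distance 0.97, with -3.85, -3.30 and -2.06 in the authors' deposited tables), and the third nearest was Fads6 (1.29). Slc4a1 was nearest to Lrrc52 (0.81), to Pvalb, parvalbumin of the distal convoluted tubule (0.92, with -3.87, -3.46 and -4.60 in the authors' deposited tables), and to Dnase1 (1.16). Foxi1 had close neighbours in Sf3b4, Prr14 and Pcgf1, at distances of 0.05, 0.06 and 0.07, as is usual for a gene near 0. Likeness over 3 values is a description only.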

How the data were processed

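Per the submitters' processing notes, reads were processed with STAR, HOMER and DESeq2 on mm10. No source used here gives their versions or roles. The authors deposited 3 tables that hold, per the file headers, mean normalized counts (a signal that is never negative), log2 fold changes, their SE on the log2 scale, p-values and adjusted p-values, and a status. The deposited p-values equalled the normal 2-sided p of fold change over SE (within 1% for 100.0% of genes). The adjusted ones equalled a Benjamini-Hochberg adjustment over genes of status OK within 8.65e-07. Among genes not marked Outlier, SEs reach at most 0.44, 0.42 and 0.79 (1.10 over all genes at 3 months), so fold changes may have been moderated towards 0.

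The members and lists were chosen with earlier results of these data known. The design foresaw count models, and since no counts per library were used here, the deposited fold changes and adjusted p-values took their place. With Python 3.11.15 and SciPy 1.17.1, 95% intervals, tests of differences between tables (tested on simulated data), exon lengths (GENCODE M21), list counts and likeness were computed, and 27 symbols turned into dates were left out. The simulated data had noise of the size of the deposited SEs and no moderation, unlike the deposited fold changes if these were moderated. All 9 members and Esrrg are named, and from a list at most 4 genes with the smallest p, beside a few chosen after their values were seen. Some genes of the lists and of the likeness search are not reported here. No label says that each library is a separate mouse, so p-values cover only the spread between these libraries, which may be technical. Total-count scaling used group totals implied by mean, fold change and the number of libraries fitted to each side (2 and 2, 2 and 2, and 2 and 3). Other alternatives were a stricter threshold, no status filter, a mean of at least 100, centring, a fold minimum, division by the root mean square for differences, and undoing the moderation.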

Additional observations from a re-analysis of the deposited data

How the results depend on the processing

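No paired analysis was possible because the labels number the 15 libraries without repeats and no values per library were used, and for the same reason leaving out replicates and a DESeq2 or edgeR fit of counts were not run. The counts of members called kept within 1.5 times of 4 in 3-week males and 3 in 3-week females under every alternative run. At 3 months, 3 members (Slc4a1, Aqp6 and Rhbg) passed in place of 0 when genes of every status were tested, which admits the 8 members without a deposited p-value. Over all genes, 4113 were then called lower and 4782 higher of 18244. The same setting gave 2 members (Slc4a1, adjusted p = 0.000544, and Aqp6, adjusted p = 0.0341) in place of 0 for the difference between ages in males. Over all genes 4512 of 17829 passed for that difference, so passing was common. The sign turned with total-count scaling for Foxi1 (0.16) and Slc26a4 (0.11) in 3-week males, Hmx2 in females (0.02), and Foxi1 (0.49), Hmx2 (0.12) and Kit (0.26) at 3 months. With the moderation undone, an alternative chosen after seeing the data that takes the ceiling of the SE as the SD of a prior, Hmx2 in 3-week males passed (-1.05, adjusted p = 0.00566), and Slc4a1, Aqp6 and Rhbg there reached -5.02, -5.34 and -2.80. Slc4a1 in females reached -8.64, and at 3 months Slc4a1 reached -7.06, Aqp6 -4.38, Rhcg -2.45, Slc26a4 -2.04 and Rhbg -1.97. These members are marked Outlier at 3 months, where SEs over all genes reach 1.10, above the ceiling of 0.79 used. The undoing may therefore not hold for them at that age. That alternative called 744 of 13545 genes for the difference between sexes, with 0 members, against 0 of 13737. Dividing by the root mean square left 475 genes in place of 3418 for that between ages, and an adjusted p under 0.01 left 2190. Over all genes, lower and higher calls of 1249 and 1291 in 3-week males, 1478 and 1173 in 3-week females and 3563 and 3819 at 3 months became 339 and 690, 282 and 449, and 1235 and 2434 with a log2 fold change of at least 1, and 701 and 2127, 856 and 2451, and 1355 and 7108 with total-count scaling. They became 2084 and 2414 in 3-week males and 2193 and 2316 in 3-week females with the moderation undone, and 817 and 864, and 979 and 731, at an adjusted p under 0.01. Deposited means and SEs leave the depth of each library unknown.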

Other observations

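The share of genes marked Outlier, which have no p-value, differed between lists and tables. At 3 months 8 of the 9 members (88.9%) had this status, against 11.3% of all 11367 genes with a mean count of at least 100. In the same table it held 8 of 11 acid secretion genes, 5 of 7 markers of the distal convoluted and connecting tubule and 5 of 10 principal cell markers. It also held 4 of the 5 tubule check genes, and 0 of the 3 relatives and ligand genes with a mean count of at least 10. In 3-week males it held 2 members, 4 of 10 principal cell markers and 0 of 7 markers of the distal convoluted and connecting tubule, against 4.43% of genes with a mean count of at least 100. In 3-week females it held 9 of 10 principal cell markers and 3 members, and 0 of the 5 tubule check genes in either 3-week table, against 6.25% of genes with a mean count of at least 100. The median SE of such genes with a mean count of at least 10 was 0.47 at 3 months, where that of genes with a p-value was 0.21. No source used here gives the rule behind the status.

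The H,K-ATPase genes, paired after their values were seen, stood on opposite sides of 0 in each table. The authors' deposited tables gave Atp4a -4.87 ± 0.23, -4.81 ± 0.24 and -3.89 ± 0.51 in 3-week males, 3-week females and 3-month males, and Atp12a 1.27 ± 0.33, 1.42 ± 0.36 and 1.35 ± 0.28. Atp12a has a p-value at 3 months (adjusted p = 5.25e-06) and Atp4a at 3 weeks (adjusted p = 1.34e-99 in males and 8.92e-83 in females). No table therefore tests both.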
